A study of Mus musculus with 10 samples.

Results

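The SOCS family is a set of 8 genes, Cish and Socs1 to Socs7, whose proteins switch off signalling by cytokine receptors. Its members were taken by symbol from the deposited table of normalized counts, which listed all 8 among 13252 genes. Regulatory T cells (Treg cells), the CD4 T cells that restrain immune responses, had been sorted from mice into CD4+RFP+GFP+ cells, called Helios+ here, and CD4+RFP+GFP- cells, called Helios-, and total RNA of each sort was sequenced in 5 libraries per group. Helios is the Ikaros family transcription factor encoded by Ikzf2, and per the sample labels GFP marks the Helios+ cells. The sources used here do not give the strain or age of the mice, any pooling, or what RFP reports. The design text of the series names a knockout of Helios, whereas the sample labels name sorted subpopulations, and the groups follow the sample labels. The question behind the comparison is how Treg cells with and without Helios differ.

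As background, a cytokine that binds its receptor activates JAK kinases, which phosphorylate STAT transcription factors, and STAT factors in turn switch on several SOCS genes. A SOCS protein binds phosphorylated receptors or kinases through an SH2 domain, and its SOCS box recruits elongins and a cullin to mark bound proteins with ubiquitin. SOCS1 and SOCS3 also block the kinase directly. In T cells CISH, the product of Cish, is known as a STAT5-induced brake on interleukin-2 signalling, SOCS1 as a brake on interferon gamma signalling, and SOCS3 as a brake on signals through gp130, the shared subunit of the interleukin-6 receptor family.

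Promoters of Cish and Socs3 are shown because these members differed in opposite directions and are textbook targets of STAT factors. RefSeq (GRCm38.p6) promoters were searched for 4 of the 8 members only, Cish, Socs1, Socs3 and Socs4. Each ran from 250 bases before to 50 bases after the RefSeq gene start, which need not be the outermost annotated start. Promoters of the other members were not searched. The capitals mark matches to TTCNNNGAA, the spacing bound by most STAT factors, which reads the same on both strands. The gene start of each sequence is base 251 of the run.
Cish promoter, chr9:107296409-107296708, plus strand: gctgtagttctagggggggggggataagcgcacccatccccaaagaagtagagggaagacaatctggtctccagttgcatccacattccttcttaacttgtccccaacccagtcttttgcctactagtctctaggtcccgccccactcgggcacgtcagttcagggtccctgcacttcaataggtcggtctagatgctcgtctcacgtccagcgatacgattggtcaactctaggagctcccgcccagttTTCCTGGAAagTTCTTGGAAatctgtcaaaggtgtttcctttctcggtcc
Socs3 promoter, chr11:117969317-117969616, minus strand: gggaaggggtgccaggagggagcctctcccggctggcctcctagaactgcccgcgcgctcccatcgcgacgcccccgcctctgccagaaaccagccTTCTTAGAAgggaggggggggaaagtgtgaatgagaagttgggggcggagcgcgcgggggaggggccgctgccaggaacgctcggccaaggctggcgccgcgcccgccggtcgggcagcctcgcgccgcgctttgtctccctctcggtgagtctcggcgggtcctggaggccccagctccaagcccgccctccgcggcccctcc
The Cish window held 2 matches that did not overlap, TTCCTGGAA from the start base itself and TTCTTGGAA from 11 bases after it. The Socs3 window held 1 match, TTCTTAGAA, from 154 bases before the start. Socs1 and Socs4 had no match in these windows. Of 32851 mouse promoter windows of the same length, 8.30% held at least 1 match and 0.457% held 2 or more. The same motif with 4 unspecified bases in the middle, also searched and also its own reverse complement, was in 6.95% of the windows and in none of those of the 4 members. A match is a run of letters and not a measured binding site.

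The libraries held 4872348 to 6948692 reads assigned to genes. Ikzf2 had 10367 ± 456 normalized counts in Helios+ cells, against 487 ± 56.5 in Helios- cells (SD, n = 5 each), so the sort matched its label. The Treg factor Foxp3 averaged 3570 ± 201 in Helios+ and 3526 ± 226 in Helios- cells, and Cd4 3208 ± 276 in Helios+ and 3334 ± 446 in Helios- cells, with overlapping groups. Transcripts of other cell types were present. The 10 B cell markers summed to 1881 to 2816 normalized counts per library in Helios+ and 2223 to 3381 in Helios- cells. Of 16 symbols listed for markers of monocytes, macrophages and neutrophils, the 14 in the table summed to 354 to 720 in Helios+ and 259 to 473 in Helios- cells. The 8 measured of 10 markers of CD8 T and NK cells summed to 562 to 628 in Helios+ and 503 to 606 in Helios- cells, and the 7 dendritic cell markers to 84.6 to 108 in Helios+ and 59.4 to 99.4 in Helios- cells. The 5 measured of 9 erythroid and platelet markers summed to 9.20 to 43.0 in Helios+ and 22.2 to 56.2 in Helios- cells. No measured marker was at 0 in all 10 libraries, but the monocyte marker Cd14 was at 0 in 3 of them. In sorted bulk cells, fewer cells that express a gene and less of its RNA per cell cannot be told apart.

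Helios+ cells had more Cish and Socs5 RNA and less Socs3 RNA than Helios- cells. The other SOCS genes were not called different in a fit with the group as the only term. Among the 8 members, all of which had a mean of at least 10 normalized counts and were tested, limma called 2 higher and 1 lower in Helios+ cells at an adjusted p under 0.05. Over the 10718 genes tested, the share called was 24.8%, with 14.1% higher and 10.7% lower, so a call was common and 3 of 8 says nothing particular of the family. With the replicate number as a block, Socs2 was also called lower (limma adjusted p = 0.00482), and 37.3% of all genes tested were called. The groups did not overlap for 3 of the 8 members, Cish, Socs3 and Socs5, against 19.5% of all genes tested. A difference of at least 2-fold was seen for 0 members higher and 1 lower, Socs3, against 5.24% of genes higher and 1.12% lower, with Socs5 just under that size. The median difference of the members on the log2(normalized count + 1) scale was 0.00, beside -0.02 over all genes tested. Summed over the 8 genes, the family had 2067 ± 143 normalized counts in Helios+ cells, against 2108 ± 136 in Helios- cells (SD, n = 5 each). The total ranged from 1840.1 to 2190.4 in Helios+ and from 1932 to 2230.3 in Helios- libraries, so the groups overlapped.

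**Figure D1:**
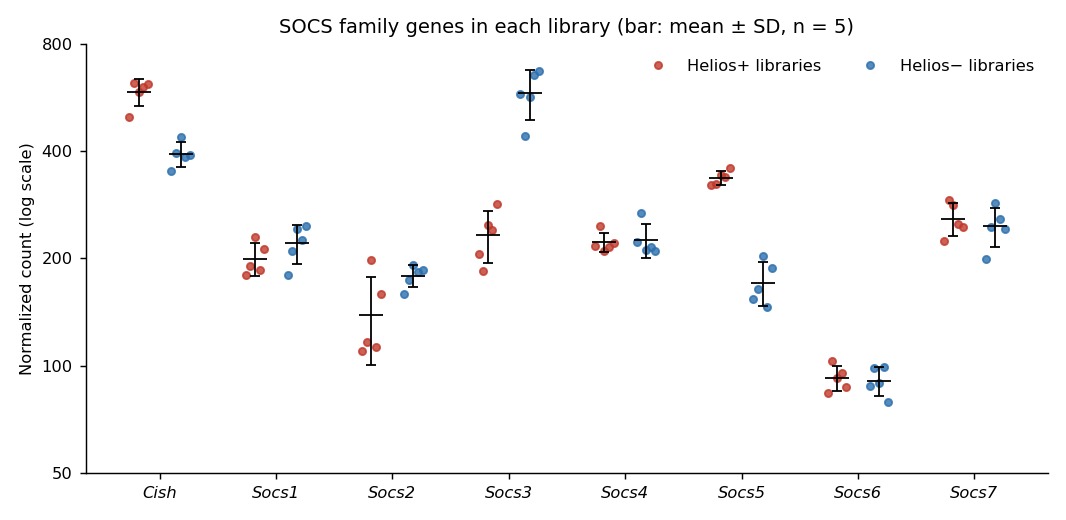
Normalized count of each SOCS family gene (log axis) in the 5 Helios+ libraries, drawn left, and the 5 Helios- libraries, drawn right, with lines at the mean ± SD. Cish and Socs5 lie higher in every Helios+ library, Socs3 lies higher in every Helios- library (440 to 673, against 184 to 284 in Helios+ libraries), and the groups overlap for the other 5 genes.

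Socs3 showed the largest difference of the family. The gene (chromosome 11, 117966079 to 117970047, minus strand, GRCm38) has 2 exons, and 0.0% of its exon bases are shared with another annotated gene. Socs3 had 206, 184, 249, 241 and 284 normalized counts in Helios+ replicates 1 to 5, against 579, 440, 568, 656 and 673 in Helios- replicates 1 to 5. The lowest Helios- library lay above the highest Helios+ library. The mean was 233 ± 38.8 in Helios+ and 583 ± 92.3 in Helios- cells (SD, n = 5 each), which is 2.51-fold lower in Helios+ cells. On the log2(normalized count + 1) scale the difference was -1.32 ± 0.13 (SE; limma adjusted p = 1.81e-06). Of all genes tested, 4.07% had a larger difference in size. Within the 5 pairs of libraries with the same replicate number it ran from -1.48 to -1.19, and it stayed between -1.42 and -1.24 when any library, or both of 1 replicate number, were left out. Monocytes and B cells can also transcribe Socs3. The summed markers of monocytes, macrophages and neutrophils overlapped between the groups (354 to 720 in Helios+, 259 to 473 in Helios-), as did those of B cells (1881 to 2816 in Helios+, 2223 to 3381 in Helios-). Of the tested markers, limma called 2 of 10 of the first list higher (Csf1r and Cd163) and 1 of 10 B cell genes lower (Ebf1). It also called 1 of 4 tested dendritic cell markers and 1 of 8 tested CD8 T and NK cell markers higher. The part of other cells in the Socs3 difference was not tested.

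Cish differed the other way. It lies on chromosome 9 (107296026 to 107302784, plus strand), and 16.0% of its exon bases overlap Gm17040 or Gm17041 on the opposite strand, so that reads could be shared if the counting ignored strand. Cish had 499, 621, 586, 606 and 619 normalized counts in Helios+ replicates 1 to 5, against 351, 396, 439, 386 and 390.3 in Helios- replicates 1 to 5. Even the lowest Helios+ library, replicate 1, exceeded the highest Helios- library. The mean was 586 ± 50.9 in Helios+ and 393 ± 31.3 in Helios- cells (SD, n = 5 each), a 1.49-fold higher level in Helios+ cells. The log2 difference was 0.58 ± 0.08 (SE; limma adjusted p = 5.94e-05). It was 0.42 to 0.66 within the 5 pairs and 0.54 to 0.63 with libraries left out in the same way. The difference was smaller than that of Socs3, and 15.1% of all genes tested had a larger one in size.

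Socs5 encodes a family member with a long N-terminal region, reported to act on the interleukin-4 and epidermal growth factor receptors. It lies on chromosome 17 (87107679 to 87137839, plus strand), with 0.0% of exon bases shared. Socs5 had 321, 323, 343, 338 and 358 normalized counts in Helios+ replicates 1 to 5, against 153, 164, 203, 146 and 188 in Helios- replicates 1 to 5. The Helios+ libraries lay close together, and each was well above all Helios- libraries. The mean was 336 ± 15.4 in Helios+ and 171 ± 23.9 in Helios- cells (SD, n = 5 each), a 1.97-fold higher level in Helios+ cells. The log2 difference was 0.98 ± 0.10 (SE; limma adjusted p = 1.49e-06). Its range was 0.75 to 1.20 within the 5 pairs and 0.93 to 1.05 with libraries left out in the same way. Of all genes tested, 6.75% had a larger difference in size.

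Socs2, known as the brake on growth hormone signalling and as a further STAT5 target, was lower in most but not all Helios+ libraries. The gene spans 95385362 to 95417180 on the minus strand of chromosome 10. Socs2 had 110.0, 116, 198, 113 and 159 normalized counts in Helios+ replicates 1 to 5, against 159, 174, 192, 183 and 186 in Helios- replicates 1 to 5. Helios+ replicate 3 was the highest of all 10 libraries, so the groups overlapped. The mean was 139 ± 38.6 in Helios+ and 179 ± 12.8 in Helios- cells (SD, n = 5 each), with a spread in Helios+ cells about as large as the difference. The log2 difference was -0.40 ± 0.15 (SE), with a 95% interval of -0.71 to -0.08, and limma did not call it (adjusted p = 0.0658). Socs2 was lower in Helios+ cells in 4 of 5 pairs, and pair 3 had a difference of 0.04. A limma fit blocked on replicate number called Socs2 (adjusted p = 0.00482), and that fit called 37.3% of all genes tested. The call was also made without Helios+ replicate 3 (a difference of -0.53, limma adjusted p = 0.00559) and without Helios- replicate 1 (-0.44, limma adjusted p = 0.0444).

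Socs1, the inhibitor with the strongest known effect on interferon gamma signalling, had similar levels in both populations. It lies on chromosome 16 (10782240 to 10785536, minus strand). Socs1 had 179, 190, 230, 186 and 213 normalized counts in Helios+ replicates 1 to 5, against 179, 210, 241, 225 and 247 in Helios- replicates 1 to 5. No Helios+ library lay above its Helios- partner, although the groups overlapped and pair 1 differed by less than 1 normalized count. The log2 difference was -0.14 ± 0.11 (SE), with a 95% interval of -0.36 to 0.08 (limma adjusted p = 0.377). Lower values within pairs thus ran from -0.28 to -0.00, and Socs1 was not called under any of 25 other settings.

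Socs4, Socs6 and Socs7, the members least known from T cells, were level between the populations. Socs4, like Socs5 a member with a long N-terminal region, had 222 ± 14.3 normalized counts in Helios+ cells, against 225 ± 24.4 in Helios- cells (SD, n = 5 each). Its values were 217, 247, 210.2, 216 and 221 in Helios+ and 223, 268, 211, 215 and 209 in Helios- replicates 1 to 5, with replicate 2 the highest in both groups. Socs6, reported to bind the receptor KIT and insulin receptor substrates, was the lowest member, with 83.8 to 103 in Helios+ and 78.8 to 99.2 in Helios- libraries. Socs7, reported to bind the adaptor NCK and insulin receptor substrates, ranged from 224 to 293 in Helios+ and from 199 to 286 in Helios- libraries. The groups overlapped for each of these genes. The 95% intervals of the log2 difference were -0.20 to 0.17 for Socs4, -0.21 to 0.26 for Socs6 and -0.15 to 0.30 for Socs7. Each interval leaves out a difference as large as that of Cish, Socs3 or Socs5. The limma adjusted p was 0.927 for Socs4, 0.908 for Socs6 and 0.669 for Socs7. A member had from 75 to 767 reads per library, the lowest being Socs6, so counting error bears most on that gene.

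**Figure D2:**
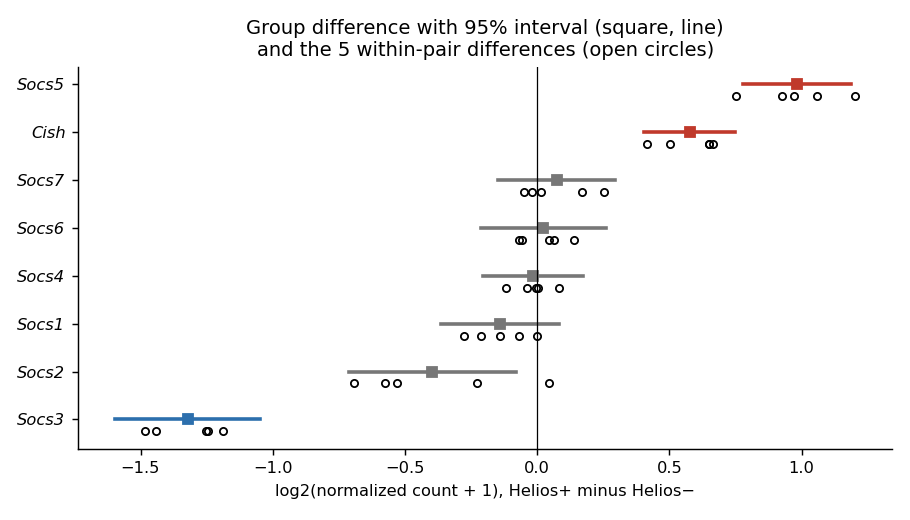
Log2(normalized count + 1), Helios+ minus Helios-, for each SOCS gene. Squares and lines are the limma estimate and its 95% interval, coloured where called, and open circles are the 5 differences between libraries with the same replicate number. Socs3 (-1.32) lies apart on the left and Socs5 (0.98) and Cish (0.58) on the right, with all 5 circles of each on the same side of 0.

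Levels of different genes were compared as normalized counts per kilobase of annotated exon (GENCODE M21). In Helios+ cells Cish led with 161 ± 13.9, followed by Socs3 with 91.2 ± 15.2, Socs5 with 72.4 ± 3.31, Socs1 with 68.6 ± 7.32 and Socs2 with 51.6 ± 14.3 normalized counts per kilobase (SD, n = 5 each). Socs7 had 36.9 ± 4.01, Socs4 32.3 ± 2.08 and Socs6 15.0 ± 1.21 per kilobase in Helios+ cells. Only Cish at the top and Socs6 at the bottom stood clear of their neighbours there, since the ranges of every other adjacent pair overlapped. In Helios- cells Socs3 led with 229 ± 36.2, followed by Cish with 108 ± 8.57, Socs1 with 75.8 ± 9.40, Socs2 with 66.3 ± 4.74 and Socs5 with 36.8 ± 5.14 per kilobase (SD, n = 5 each). Socs7 had 35.1 ± 4.49, Socs4 32.7 ± 3.55 and Socs6 14.8 ± 1.37 per kilobase in Helios- cells. In Helios- cells the ranges of neighbours overlapped between Socs1 and Socs2, between Socs5 and Socs7 and between Socs7 and Socs4. The order of the leading pair was thus exchanged between the populations. The ratio of Cish to Socs3 per kilobase was 1.69, 2.36, 1.65, 1.76 and 1.53 in Helios+ replicates 1 to 5, and 0.425, 0.629, 0.541, 0.412 and 0.405 in Helios- replicates 1 to 5. Cish was the higher of the pair in every Helios+ library and Socs3 in every Helios- library. The range of Socs5 overlapped those of Socs3, Socs1 and Socs2 in Helios+ cells and those of Socs7 and Socs4 in Helios- cells.

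**Figure D3:**
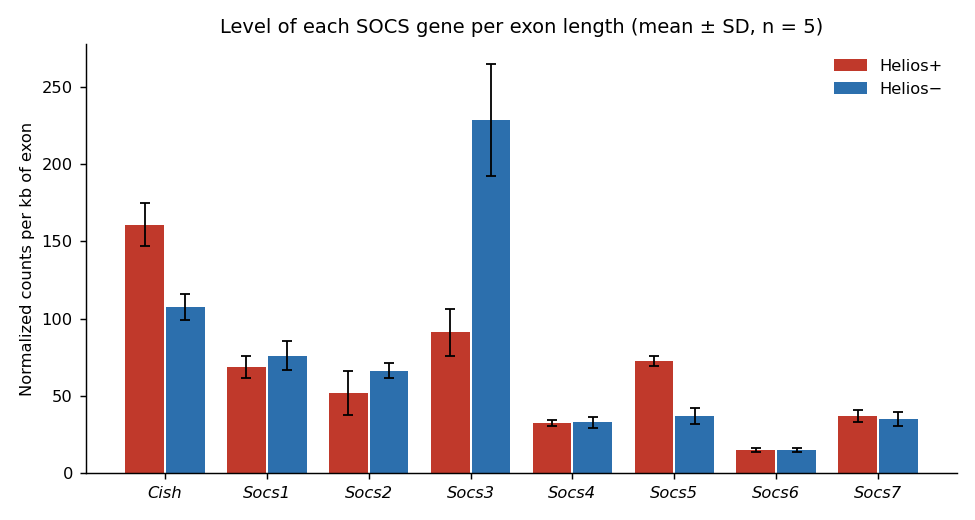
Mean normalized counts per kilobase of exon for each SOCS gene, with Helios+ bars left of Helios- bars and SD lines (n = 5 each). Cish is the highest bar in Helios+ cells (161) and Socs3 the highest in Helios- cells (229), and Socs6 is the lowest in both (15.0 and 14.8).

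Genes with the most similar pattern were sought for each member by the root mean square difference of log2 values over the 10 libraries, each gene centred on its own mean, among 8027 other genes with a mean of at least 50. Socs3 lay nearest Tgfbr3, a TGF-β co-receptor (0.173), Ugcg, which makes glucosylceramide (0.175), and Sema4a, a semaphorin (0.18), against its own variation of 0.696 about its mean. Ugcg had 455 ± 43.7 normalized counts in Helios+ cells, against 1269 ± 139 in Helios- cells. Socs5 lay nearest Tox, a nuclear factor of activated and exhausted T cells (0.0799), Ecm1 (0.0894) and Mxd4, a repressor of the MYC network (0.0957), against its own 0.509. Tox had 1073 ± 105 in Helios+ and 560 ± 82.4 in Helios- cells. Cish lay nearest Armcx2 (0.0675), Rab11fip1, a trafficking adaptor (0.0761), and Ndfip1, which activates ubiquitin ligases (0.0789), against its own 0.309. Socs2 lay nearest Tmem185b (0.142), Tnfaip8l2 (0.148) and Rala (0.149), against its own 0.315. The 4 level members lay nearest other genes that varied little. These were Antxr2, Upf3a and Kcnab2 for Socs1, Dnajb12, Mbnl2 and Eif2b5 for Socs4, Adam17, Klhl11 and Mier1 for Socs6, and Bsg, C1qbp and Map2k2 for Socs7.

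Cytokine receptor genes differed in both directions. Of 25 tested cytokine receptor genes, limma called 9 higher and 4 lower, 52.0% against 24.8% of all genes tested, with a median difference of 0.03. Both chains of the interleukin-6 receptor, whose signals are known to induce Socs3, were lower in Helios+ cells. Il6ra had 833 ± 39.1 normalized counts in Helios+ cells, against 1982 ± 53.6 in Helios- cells, and Il6st, the gp130 gene, had 2283 ± 146 in Helios+ cells, against 3100 ± 152 in Helios- cells (limma adjusted p = 0.000121). The interleukin-10 receptor genes Il10ra (0.42 ± 0.13, limma adjusted p = 0.0249) and Il10rb (0.22 ± 0.07, limma adjusted p = 0.0427) were called higher, but their groups overlapped. Il10ra ran from 560 to 878 in Helios+ and from 433 to 619 in Helios- libraries. Il10rb ran from 410 to 459 in Helios+ and from 328 to 414 in Helios- libraries. Il27ra, Lifr and Il11ra1 were not called. How these receptors bear on Socs3 was not tested. The interleukin-2 receptor chain gene Il2rb, whose product CISH is reported to bind, was 2.00-fold higher, at 3519 ± 506 in Helios+ and 1758 ± 349 in Helios- cells (limma adjusted p = 3.36e-05). The interleukin-4 receptor gene Il4ra, on which SOCS5 is reported to act, was lower, with a log2 difference of -0.59 ± 0.07, and Il9r and Crlf2 were higher by 1.23 ± 0.16 and 0.78 ± 0.11. The count of higher receptors became 4 without Helios+ replicate 2 and 5 without Helios- replicate 4 or without both libraries of replicate 2, 4 or 5, and the replicate block called 8 lower.

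Of the 4 JAK kinase genes limma called 1 higher and 1 lower, and of the 6 STAT genes 1 higher and 1 lower (33.3%), against 24.8% of all genes tested. Jak1 was lower (-0.38 ± 0.08) and Jak2 higher (0.28 ± 0.06), while Jak3 (0.17) and Tyk2 (0.27) were not called, the last with a limma adjusted p of 0.0662. The replicate block called Tyk2 (limma adjusted p = 0.0007), as did the fits without Helios- replicate 1 (0.0169) and without Helios+ replicate 3 (0.0493). Among the STAT genes, Stat4 was lower (-0.27 ± 0.07) and Stat5a higher (0.30 ± 0.09), and Stat2, Stat3, Stat5b and Stat6 had differences of -0.08 to 0.10. The Stat5a call (limma adjusted p = 0.0313) was lost without any 1 of Helios+ replicates 2, 3, 4 and 5 or Helios- replicates 1, 2 and 4 (limma adjusted p = 0.0514 to 0.0826), and without trend and robust estimation. None of the 6 measured ligase genes, Tceb1, Tceb2, Cul5, Cul2, Rnf7 and Rbx1, was called by limma, with differences from -0.17 to 0.20. Of 12 tested genes of other SOCS box proteins, Asb2 was higher (1.22 ± 0.16) and Spsb1 lower (-1.26 ± 0.14), which is 16.7% called. Asb13, named after its values were seen, had a difference of -0.52 and made the lower count 2 without Helios+ replicate 1, without Helios- replicate 3, without both libraries of replicate 1 or of replicate 3, with quantile normalization, with DESeq2 and with the replicate block.

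Inhibitors of the pathway outside the family were split, with 3 of 14 higher and 3 lower, 42.9% against 24.8% of all genes tested. The phosphatase genes Ptpn11 (0.32 ± 0.06) and Dusp3 (1.02 ± 0.28) and the STAT3 inhibitor Pias3 (0.53 ± 0.17) were higher, and the phosphatase gene Ptpn2 (-0.28 ± 0.07), Pias1 (-0.24 ± 0.06) and the ubiquitin ligase gene Cblb (-0.23 ± 0.08) were lower. The Pias3 call was lost without any 1 of Helios+ replicates 2, 4 and 5 or Helios- replicates 3 and 5 (limma adjusted p = 0.0518 to 0.0733). The Cblb call was lost without any 1 of Helios+ replicates 3, 4 and 5 or Helios- replicates 1, 2 and 4 (limma adjusted p = 0.0648 to 0.128), and with edgeR. With the replicate block 5 were called lower, with quantile normalization 1 was called higher, and without both libraries of replicate 5 there was 1 called higher and 1 lower. Dusp3 lost its call without both libraries of replicate 3 (limma adjusted p = 0.0678) or of replicate 5 (0.0567), and Pias1 without those of replicate 5 (0.0539).

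Called target genes of the signals that induce SOCS genes were mostly higher for STAT5 and STAT3, and mostly lower for interferon gamma. Of 19 tested STAT5 targets, 6 were higher and 1 lower, 36.8% against 24.8% of all genes tested, with a median of 0.06. The costimulatory receptors Tnfrsf9 (2.79 ± 0.13) and Tnfrsf4 (1.82 ± 0.09), Il2rb, the cytokine gene Lif (1.94 ± 0.41) and the survival gene Bcl2l1 (0.76 ± 0.18) were higher, and Bcl2 was lower (-0.42 ± 0.11). The lower count became 2 without Helios- replicate 2 and 3 with the replicate block. Of 13 tested STAT3 targets, 8 were higher and 1 lower, 69.2% against 24.8% of all genes tested, with a median of 0.67. The transcription factor genes Irf4 (0.73 ± 0.07), Batf (1.27 ± 0.13), Rora (1.48 ± 0.15), Hif1a (0.74 ± 0.07), Bcl6 (0.77 ± 0.09) and Ahr (0.68 ± 0.10) were higher. The listed STAT3 target called lower was Il6st. STAT3 activity was not measured, and its part in the Socs3 difference was not tested. Of 22 tested targets of interferon gamma, 3 were higher and 7 lower, 45.5% against the same 24.8%, with a median of -0.04. The GTPase genes Igtp (-0.64 ± 0.06), Irgm2 (-0.58 ± 0.07), Irgm1 (-0.42 ± 0.07), Iigp1 (-0.55 ± 0.10) and Gbp2 (-0.48 ± 0.10) were lower and Gbp5 (0.43 ± 0.06) higher. Of 20 tested genes whose proteins SOCS proteins are reported to bind, 4 were higher and 4 lower (40.0%), among them Igf1r (0.81 ± 0.07) and the focal adhesion kinase gene Ptk2 (-1.01 ± 0.15). The lists share genes, such as Il2rb and Il6st, so their counts are not independent.

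**Figure D4:**
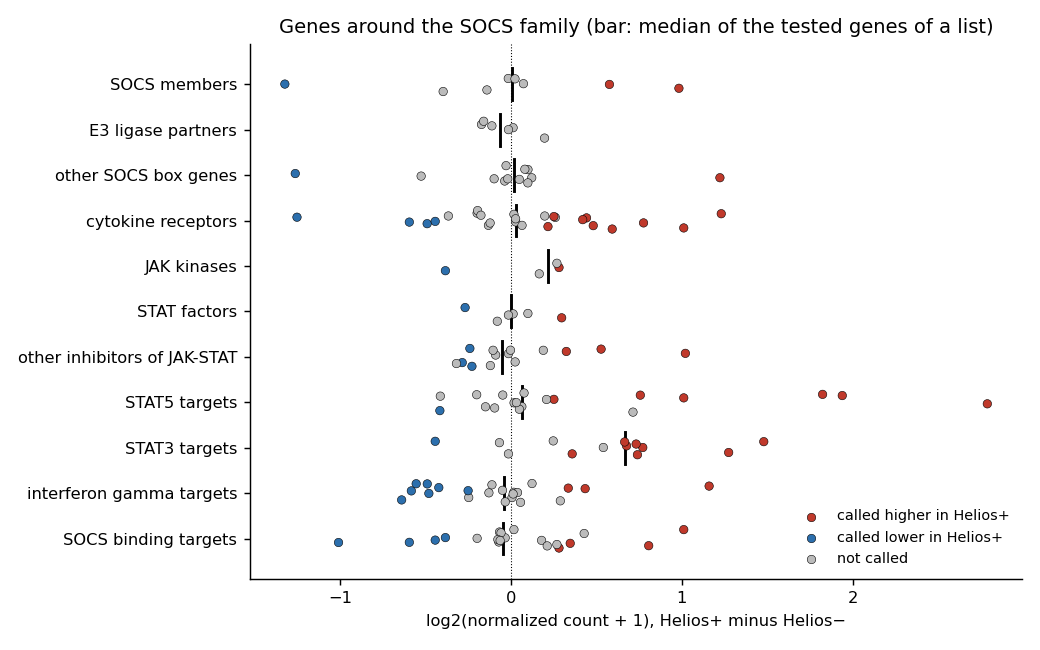
Log2(normalized count + 1), Helios+ minus Helios-, of the tested genes of each list, with a point for each gene, red where called higher and blue where called lower in Helios+ cells, and a bar at the median of the list. The SOCS members spread from -1.32 to 0.98 around a median of 0.00, the ligase partners stay between -0.17 and 0.20, and the STAT3 targets have a median of 0.67.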

How the data were processed

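The authors deposited 1 table of normalized counts, a signal that is never negative, for 13252 genes in 10 libraries. The submitters' processing notes name HTSeq, DESeq2, HISAT2 version 2.0.4 and the build mm10, with no role for each. For the annotation, the strand setting and the gene filter, the sources used here give nothing. Per the labels' protocols, total RNA was made into libraries with a SMARTer stranded kit. Every deposited value was a whole multiple of its library's smallest value above 0 (100% within 0.001), so whole reads were recovered, and size factors recomputed from them differed from those in the table by a relative 2.9e-15 at most. No columns were left unused.

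Genes with a mean of at least 10 (10718) were tested with limma 3.58.1 in R 4.3.3 (trend and robust) on log2(normalized count + 1), which understates differences of low genes. The group was the only term, Benjamini-Hochberg adjustment ran over all genes tested, and calls had an adjusted p under 0.05. The fit was tested on simulated data. Alternatives were pseudocounts of 0.5 and 8, no filter and a mean of at least 50, TMM and quantile scaling, no trend or robust estimation, edgeR 4.0.16 and DESeq2 1.42.0 on the recovered reads, the replicate number as a block, and leaving out libraries singly or by replicate number. edgeR called 1563 genes higher and 1074 lower, against 1512 and 1143 with limma.

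Libraries with the same replicate number deviated together from their group means (correlation across genes 0.15 to 0.48 over 5 pairs, median -0.03 between other numbers), and every pair passed the minimum of 0.1, so equal numbers were taken to pair the libraries. The labels do not say whether libraries came from separate mice, so the p-values rest on differences between these libraries, which may be technical. The 20 pairs of libraries within groups differed by more than sampling noise (chi-square per degree of freedom 3.53 to 52.3), and none were merged. The members and the gene lists were chosen with earlier results of these data known. Some genes of the lists were left out of the counts and are not reported here. Genes named by rule are the 8 members, Ikzf2, Foxp3 and Cd4, the 3 most similar genes of each member, all members of lists of up to 8 genes, and up to 6 called genes with the smallest p of each longer list. Cd14, Csf1r, Cd163, Ebf1, Asb13, Il10ra, Il10rb, Il27ra, Lifr and Il11ra1 fall outside that rule and were named after their values were seen. Positions and exon lengths are from GENCODE M21 (GRCm38) and promoters from RefSeq (GRCm38.p6), both on the build named in the notes. Intervals and read numbers cover counting error and the spread between libraries only.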

Additional observations from a re-analysis of the deposited data

Results flagged for a closer look

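Each of 168 groups of 5 libraries, the Helios+ and Helios- libraries of every named gene, was searched for a library whose gap to its nearest neighbour exceeded 0.71 of the range, and 13 were found, where chance gives about 5% of groups.
Among the SOCS genes, Cish was low in Helios+ replicate 1 (499, others 586 to 621 normalized counts) and Socs4 high in Helios- replicate 2 (268, others 209 to 223).
Helios+ replicate 1 was also low for Il6st (2022, others 2331 to 2367), Tnfrsf4 (1316, others 1496 to 1531) and Tox (885, others 1113 to 1136), and Helios- replicate 1 was low for Il6st (2830.1, others 3138 to 3192).
In Helios- libraries, Dnajb12 was high in replicate 2 (394, others 319 to 337), Il9r in replicate 2 (31.8, others 26.2 to 27.4) and Mxd4 in replicate 3 (667, others 548 to 556).
In Helios+ libraries, Bcl6 was high in replicate 3 (366, others 314 to 326), Ptpn2 in replicate 4 (521, others 451 to 468), Sema4a in replicate 4 (87.4, others 62.7 to 69.5) and Stat3 in replicate 5 (1509, others 1379 to 1414).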

How the results depend on the processing

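Cish, Socs3 and Socs5 kept their direction and their call under all 25 alternatives, and Socs1, Socs4, Socs6 and Socs7 were called under none of them. Socs2 was called lower under quantile normalization (-0.45, limma adjusted p = 0.0403) and with the replicate block (-0.40, limma adjusted p = 0.00482), so that 2 members were then lower in place of 1, and with libraries left out its difference ran from -0.53 to -0.32 and the count of lower members from 1 to 2. The replicate block called 1979 genes lower over the whole table, and with libraries left out the count was 748 (without both libraries of replicate 4) to 1293. It changed the calls of no other SOCS gene. Differences near 0 changed sign under quantile normalization, namely Socs6 (-0.064), Cd4 (0.044), Klhl11 (-0.044), Stat3 (0.064) and Stat6 (0.0036), as did Tceb1 with edgeR (0.0021), and the cause was not tested. Quantile normalization also ended the calls of Bcl2, Dusp3, Pias3 and Cblb and added a call for Stat5b. With libraries left out, ranges that crossed 0 were those of Socs4 (-0.053 to 0.049), Socs6 (-0.025 to 0.057), Socs7 (-0.00048 to 0.13), C1qbp (-0.022 to 0.12), Cd4 (-0.10 to 0.024), Cul5 (-0.037 to 0.052), Eif2b5 (-0.067 to 0.00049), Foxp3 (-0.0061 to 0.049), Klhl11 (-0.032 to 0.058), Map2k2 (-0.051 to 0.10), Mier1 (-0.015 to 0.063), Stat2 (-0.088 to 0.13), Stat3 (-0.038 to 0.0018) and Tceb1 (-0.12 to 0.070). Of 500 counts of called list genes under the alternatives, 465 stayed within 1.5 times of the count in the report. These 465 include the ligase counts, 0 higher and 0 lower in the report, which stayed at 0 under every alternative.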
